A study of Mus musculus with 15 samples.

Results

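10 genes of the contact zone between endothelial cells and of the Tie receptor pair were followed among the 32930 genes summed from the deposited table of mouse vascular tissue. They were Cldn5, Ocln and Tjp1 of the tight junction, Jam2, Jam3, Esam and Pecam1 of the immunoglobulin adhesion proteins, Cdh5 of the adherens junction, and the receptors Tie1 and Tek. The list was named gene by gene and was chosen by measured values of AngII against NS, in which Cldn5 stood low while Pecam1 did not. Values of that contrast are therefore given as a description with no test, and nothing is supported with them. The other comparisons share the AngII or the NS libraries with it and are not independent of it. For Cldn5 this holds most in Lien against NS, since a level low against the same NS libraries is what it was chosen for. Whether Lien values also took part in the choice is not known.

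The Lien group was 5 libraries, numbered 11 to 15, from mice labelled with hypertension to which Lien was added, and Lien is read from the series title as liensinine, an alkaloid of the lotus. The AngII group was 5 libraries, numbered 6 to 10, labelled with hypertension, and AngII stands for angiotensin II, a peptide that raises blood pressure. The NS group was 5 libraries, numbered 1 to 5, labelled as normal. All 3 groups were C57BL/6 mice of 10 weeks with the tissue label of vessel, no transgene or deletion was named, and doses and days of treatment were not given in the labels. The title asks whether liensinine eases vessel remodelling under angiotensin II. Nothing in the labels ties a library to its own animal, so p-values measure the spread between libraries, which may be technical in part.

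The cells that line vessels are held together by tight junctions, whose strands are built from claudins, and by adherens junctions, in which VE-cadherin (Cdh5) binds the same protein on the next cell. Together they set how readily fluid, proteins and leukocytes pass the vessel wall. The Tie receptors sit on the same cells: Tek (Tie2) binds angiopoietins, Angpt1 as an activating ligand and Angpt2 as a ligand that can block it, and Tie1 is a partner receptor of Tek. Active Tek signalling keeps endothelium quiet and its junctions closed.

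Levels are given in FPKM, fragments scaled to transcript length and to the fragments of the library. The unit is read from the values, since neither the header nor the labels name it, and the sequencing depth behind the values is unknown. Library sums ran from 477095 to 569546, and log2 values of tested genes correlated between libraries at 0.853 to 0.958 (Pearson r, 105 pairs). General endothelial markers were present everywhere: 12 genes outside the 10, among them Kdr, Emcn and Vwf, had mean log2(FPKM + 1) of 4.02 to 4.87 in Lien, 4.27 to 4.56 in AngII and 4.03 to 4.91 in NS. The tissue held other cell types too, in amounts that differed between libraries. Across the 15 libraries the mean log2 level ran from 5.69 to 8.70 for smooth muscle, 5.58 to 8.60 for brown adipocyte, 1.24 to 5.17 for Schwann cell and nerve, 0.59 to 7.94 for cardiomyocyte and 0.97 to 10.01 for skeletal muscle markers. NS 3 was the highest of all 15 libraries for 8 of the 10 genes. It was also the highest for the skeletal muscle, Schwann cell and nerve, pericyte and epithelium markers and for the 12 general endothelial markers (4.91). In bulk tissue, fewer endothelial cells and less of an RNA per endothelial cell cannot be told apart.

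Ordered by mean level over the 15 libraries, Cldn5 stood first at 137.9 FPKM. Pecam1 followed at 90.3, Esam at 52.7, Cdh5 at 51.5, Tie1 at 30.4, Tek at 19.4, Jam2 at 19.4, Jam3 at 18.02, Tjp1 at 8.54 and Ocln at 0.412 FPKM. Several neighbours in this order were not set apart. Esam was above Cdh5 in 5 of 15 libraries, Tek above Jam2 in 6 and Jam2 above Jam3 in 9. Cldn5 was above Pecam1 in 10 of 15 libraries. Pecam1 was above Esam, Tie1 above Tek, Jam3 above Tjp1 and Tjp1 above Ocln in 15 of 15.

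**Figure D1:**
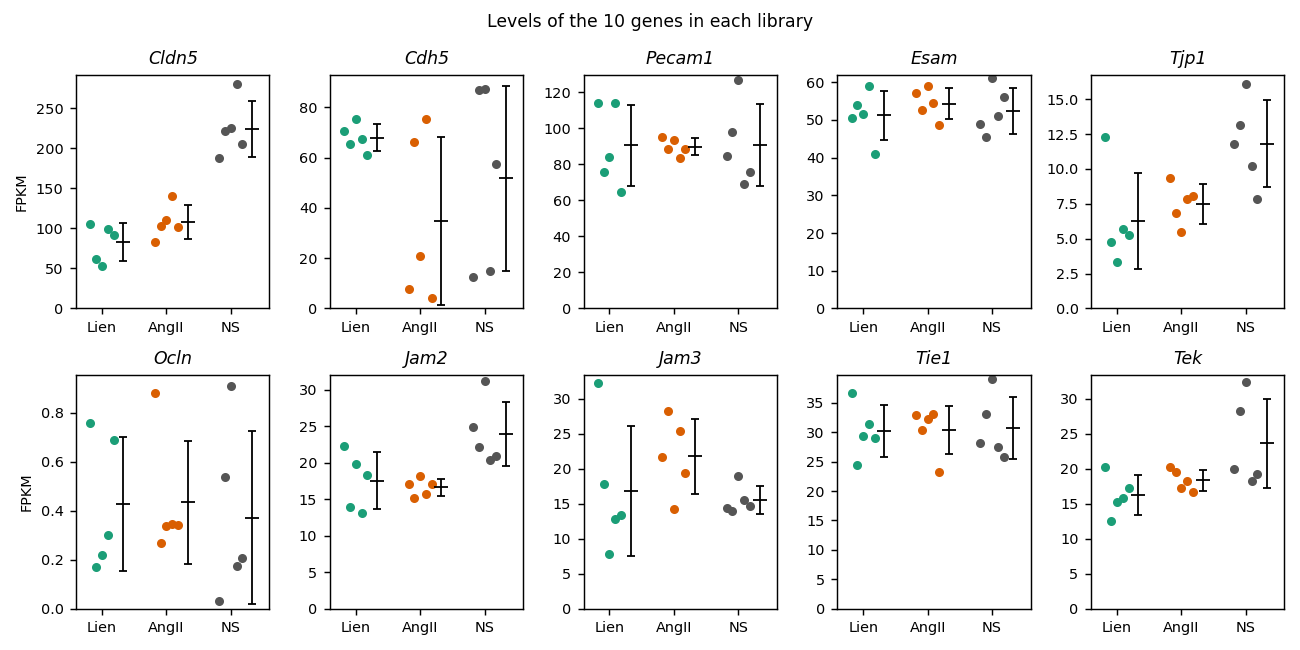
FPKM (y axis, from 0, a scale of its own in each panel) of the 10 genes in the 5 libraries of Lien, AngII and NS (x axis), 1 point per library in order of library number, with the mean and SD to the right of the points. Cldn5 in all Lien and AngII libraries lies below the lowest NS library (187 FPKM), Pecam1, Esam and Tie1 overlap across groups, and Cdh5 falls into a high and a low set of libraries.

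Cldn5 encodes claudin-5, the main claudin of endothelial tight junctions. The gene (ENSMUSG00000041378, chr16:18776847-18778262, plus strand, GRCm38) has a single annotated transcript with 1 exon and 218 codons. The 250 bases before its start, from RefSeq (GRCm38.p6), are shown because it was the member with the lowest level in both hypertensive groups relative to NS. The comparison sequence is the same window of Tjp1, the member with the next largest difference in Lien against NS. Capitals mark the ETS core GGAA or TTCC and the CCAAT box CCAAT or ATTGG, searched on both strands. These 2 motifs did not share bases.
Cldn5, chr16:18776597-18776846, plus strand: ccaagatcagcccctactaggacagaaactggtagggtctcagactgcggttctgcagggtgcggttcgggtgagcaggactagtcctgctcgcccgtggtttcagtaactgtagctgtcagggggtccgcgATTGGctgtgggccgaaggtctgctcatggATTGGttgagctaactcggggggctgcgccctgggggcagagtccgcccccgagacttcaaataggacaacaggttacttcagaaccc
Tjp1, chr7:65371245-65371494, minus strand: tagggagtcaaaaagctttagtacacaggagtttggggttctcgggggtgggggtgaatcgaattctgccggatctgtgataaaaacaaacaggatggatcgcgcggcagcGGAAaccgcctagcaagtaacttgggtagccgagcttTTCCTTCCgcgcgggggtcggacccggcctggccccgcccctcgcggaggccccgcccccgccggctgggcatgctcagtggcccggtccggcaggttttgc
The Cldn5 window held 0 ETS cores, which 93.4% of 27025 mouse promoter windows of 250 bases hold, and 2 CCAAT boxes, a motif that 34.5% hold and 10.5% hold at least this often. The Tjp1 window held 3 ETS cores and 0 CCAAT boxes. The KLF core CACCC or GGGTG occurred 2 times in each window, a motif that 51.3% of windows hold and 20.7% hold at least this often. These are letter matches and not binding sites. The table of promoters held 5 of the 10 genes (Cldn5, Ocln, Tjp1, Tie1 and Tek).

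Cldn5 had 106, 61.9, 52.5, 99.7 and 92.1 FPKM in Lien 11 to 15. It had 82.5, 103, 111, 140.3 and 101 FPKM in AngII 6 to 10, and 187, 221, 225, 280.4 and 205 FPKM in NS 1 to 5. Every Lien library and every AngII library was below every NS library, and Lien and AngII overlapped. Means were 82.4 ± 23.7 FPKM in Lien, 107.5 ± 21 in AngII and 223.8 ± 35.0 in NS (SD, n = 5 each).

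In Lien against NS, Cldn5 fell by 1.47 on the log2(FPKM + 1) scale, a fold of 0.361 (SE 0.21, 95% interval -1.91 to -1.03, limma adjusted p = 0.00984 over 15586 genes). It was the 1 of the 10 genes called, at an adjusted p under 0.05, where 0.231% of all genes tested were called. This p is the value of the fit across all genes and no independent evidence, because the NS values in it took part in the choice of the gene. It was also the 1 of 10 with every Lien library below every NS library, as were 0.911% of all genes. A fit of the Lien and NS libraries alone gave the same difference with a limma adjusted p of 0.0528. Leaving out any 1 of the 15 libraries kept the call, with limma adjusted p from 0.00541 to 0.0348.

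In Lien against AngII, Cldn5 differed by -0.41 (SE 0.21, 95% interval -0.85 to 0.03, limma adjusted p = 0.74) and did not pass the test. None of the 10 genes was called by limma in this comparison, where 0.0128% of all genes were called. An unadjusted p under 0.05 was found for 1 of the 10 (Cdh5) and for 6.4% of all genes, so this count is near the background. In AngII against NS the Cldn5 difference was -1.06, a fold of 0.48. Over all genes tested, 0.077% were called by limma in that contrast. Cldn5 and Jam2 were the 2 of 10 with every AngII library below every NS library, as were 0.52% of all genes. They are part of how the list was chosen and are not read further.

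Markers of other cells differed between the same libraries. Schwann cell and nerve markers had mean log2 values of 3.92 to 5.17 in 6 libraries (Lien 11, AngII 6, 7 and 9, NS 2 and 3) and of 1.24 to 2.83 in the other 9. The same 6 libraries were the highest in lymphatic endothelium markers (3.21 to 4.10, against 1.80 to 2.84 in the other 9). They were also the lowest in brown adipocyte markers (5.58 to 7.54, against 7.83 to 8.60). The split is therefore not one of nerve markers alone. Within the 6, Cldn5 stood at 106 FPKM in the Lien library, 82.5 to 140.3 in the 3 AngII libraries and 221 to 225 in the 2 NS libraries. Within the 9, Cldn5 stood at 52.5 to 99.7 FPKM in 4 Lien libraries, 101 to 111 in 2 AngII libraries and 187 to 280.4 in 3 NS libraries.

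Ratios within a library show Cldn5 against other genes that endothelium expresses. Platelets also express Pecam1 and Esam, and leukocytes Pecam1, so the ratios are not confined to endothelial cells. Cldn5/Pecam1 was 0.624 to 1.42 in Lien, 0.869 to 1.69 in AngII and 1.78 to 4.05 in NS. Cldn5/Esam was 1.02 to 2.25 in Lien, 1.45 to 2.58 in AngII and 3.66 to 5.5 in NS. Cldn5/Tie1 was 1.79 to 3.18 in Lien, 2.51 to 4.35 in AngII and 5.78 to 10.2 in NS. None of these 3 ratios overlapped between NS and either hypertensive group. Less the mean of the 12 endothelial markers, log2 Cldn5 was 1.57 to 2.42 in Lien, 1.89 to 2.58 in AngII and 2.92 to 4.11 in NS, again without overlap with NS. Cldn5/Tek was 3.43 to 6.28 in Lien, 4.07 to 7.67 in AngII and 6.94 to 15.3 in NS. In that ratio AngII overlapped with NS. All of these carry the Cldn5 values themselves and are no separate evidence, and how often other ratios part the groups was not examined.

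**Figure D2:**
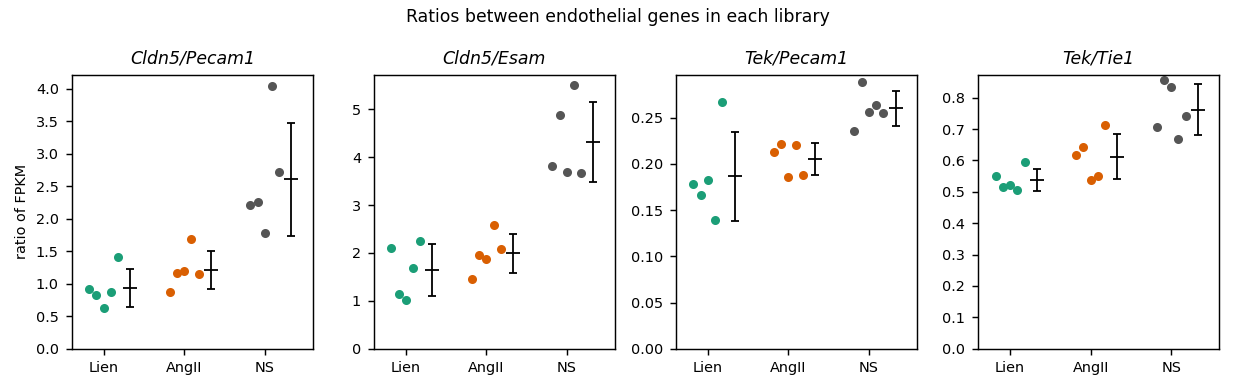
Ratio of FPKM (y axis, from 0) of Cldn5 to Pecam1, Cldn5 to Esam, Tek to Pecam1 and Tek to Tie1 in each library of Lien, AngII and NS (x axis), with the mean and SD to the right of the points. Cldn5/Pecam1 (from 1.78 upward) and Cldn5/Esam in NS lie above all those of Lien and AngII. Tek/Tie1 in Lien (0.507 to 0.595) lies below all NS libraries.

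Transcripts that carry only an assembly name were searched for values opposite to those of Cldn5. Of 30229 such transcripts, 6 were higher in each of the 10 Lien and AngII libraries than in every NS library, with a mean rise of at most 11.04 FPKM. The mean of the 10 Lien and AngII libraries lay 128.8 FPKM below that of NS for Cldn5.

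Tjp1 encodes ZO-1, the scaffold that ties claudins and occludin to actin (ENSMUSG00000030516, chr7:65296165-65527781, minus strand, GRCm38). It had 12.3, 4.78, 3.36, 5.69 and 5.27 FPKM in Lien 11 to 15. It had 9.35, 6.83, 5.50, 7.85 and 8.03 FPKM in AngII 6 to 10, and 11.8, 13.2, 16.1, 10.2 and 7.81 FPKM in NS 1 to 5. Lien 11 stood apart at 12.3 FPKM, and the other 4 Lien libraries were below all 5 NS libraries. Lien against NS differed by -0.89 (SE 0.26, 95% interval -1.44 to -0.34, unadjusted p = 0.00382, limma adjusted p = 0.325) and did not pass. Without Lien 11 the difference was -1.13 and passed (limma adjusted p = 0.031), which rests on leaving out the library that lies farthest from its group. Lien 11 was also the Lien library with the highest nerve marker value (5.05, against 1.24 at the lowest). Within Lien it was the highest in lymphatic endothelium (4.07) and fibroblast markers (8.51) too, and the lowest in brown adipocyte markers (5.58). The part of any of these in the result was not tested. Lien against AngII differed by -0.32 (limma adjusted p = 0.744) and AngII against NS by -0.57.

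The transcripts of Tjp1 differ by an exon known for the α domain of ZO-1. Tjp1-202 (1745 codons) carries a 240-base coding exon that Tjp1-201 (1685 codons) skips. Tjp1-201 in turn holds 60 coding bases (chr7:65299670-65299729) that Tjp1-202 lacks. The 240-base exon is shown in capitals with 20 flanking coding bases on each side in lower case, from the GENCODE M21 transcript (GRCm38, minus strand).
Tjp1-202, chr7:65314093-65314332: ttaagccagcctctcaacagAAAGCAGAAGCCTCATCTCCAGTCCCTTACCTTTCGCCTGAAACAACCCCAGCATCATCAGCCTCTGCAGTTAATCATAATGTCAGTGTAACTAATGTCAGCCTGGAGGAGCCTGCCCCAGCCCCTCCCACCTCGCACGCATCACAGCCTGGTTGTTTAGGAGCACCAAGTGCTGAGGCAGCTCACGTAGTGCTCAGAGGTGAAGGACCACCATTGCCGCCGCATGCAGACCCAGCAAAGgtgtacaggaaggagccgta
Tjp1-201, the form without the exon, had 10.5, 3.32, 2.14, 4.08 and 3.54 FPKM in Lien 11 to 15. It had 7.64, 5.09, 3.63, 6.24 and 6.45 FPKM in AngII 6 to 10, and 10.0, 10.7, 12.7, 8.32 and 5.90 FPKM in NS 1 to 5.
Tjp1-202 had 1.61, 1.28, 1.09, 1.53 and 1.55 FPKM in Lien 11 to 15, against 1.58, 1.64, 1.53, 1.502 and 1.36 FPKM in AngII 6 to 10 and 1.64, 2.17, 2.54, 1.73 and 1.74 FPKM in NS 1 to 5. As a share of the gene, Tjp1-202 made up 25.7% ± 7.4 in Lien, 20.9% ± 4.82 in AngII and 17.1% ± 3.14 in NS (SD, n = 5 each). The groups overlapped, with 13.1% in Lien 11 and 26.8% to 32.3% in the other Lien libraries. Tjp1-201 spanned the wider range of the pair, 2.14 to 12.7 FPKM against 1.09 to 2.54 for Tjp1-202. These values depend on how the authors' quantifier divided reads between transcripts.

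Ocln encodes occludin, a membrane protein of tight junctions in epithelium and in brain endothelium (ENSMUSG00000021638, chr13:100496507-100552718, minus strand). It was near the lower limit of the table, at 0.172 to 0.760 FPKM in Lien, 0.269 to 0.882 in AngII and 0.0310 to 0.911 in NS. Exactly 5 libraries reached 0.5 FPKM, the least that the filter allows. Differences were -0.01 in Lien against AngII (95% interval -0.41 to 0.38), 0.07 in Lien against NS (-0.32 to 0.47) and 0.09 in AngII against NS, and neither Lien comparison passed (limma adjusted p = 0.984 against AngII). Epithelium markers were low in the same libraries (Epcam averaged 0.0537 FPKM in Lien, 0.289 in AngII and 0.178 in NS).

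Jam2 and Jam3 encode junctional adhesion molecules that bind each other across cell contacts and take part in leukocyte passage. Jam2 (ENSMUSG00000053062, chr16:84774123-84825928, plus strand) had 22.3, 13.9, 19.8, 13.2 and 18.4 FPKM in Lien 11 to 15. It had 17.2, 15.2, 18.2, 15.8 and 17.0 FPKM in AngII 6 to 10, and 24.9, 22.2, 31.1, 20.4 and 20.97 FPKM in NS 1 to 5. All 5 AngII libraries and 4 of the 5 Lien libraries were below the lowest NS library. Lien against NS differed by -0.44 (SE 0.15, 95% interval -0.77 to -0.11, unadjusted p = 0.0121, limma adjusted p = 0.527), which did not pass. Lien against AngII differed by 0.04 and AngII against NS by -0.48.

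Jam3 (ENSMUSG00000031990, chr9:27097384-27155421, minus strand) had 32.2, 17.9, 7.81, 12.8 and 13.4 FPKM in Lien 11 to 15. It had 21.6, 28.2, 14.3, 25.3 and 19.3 FPKM in AngII 6 to 10, and 14.3, 13.99, 19.0, 15.6 and 14.7 FPKM in NS 1 to 5. Lien held both the highest and the lowest library of all 15. Differences were -0.46 in Lien against AngII (95% interval -1.05 to 0.13, limma adjusted p = 0.74), -0.02 in Lien against NS (limma adjusted p = 0.994) and 0.44 in AngII against NS. In the 6 libraries with high nerve markers, Jam3 was 32.2 FPKM in Lien, 21.6 to 28.2 in AngII and 13.99 to 19.0 in NS. In the other 9 it was 7.81 to 17.9 FPKM in Lien, 14.3 to 19.3 in AngII and 14.3 to 15.6 in NS. The same 6 libraries were the highest in lymphatic endothelium markers and the lowest in brown adipocyte markers. The part of nerve, lymphatic or fat RNA in Jam3 was not tested. Jam3/Jam2 was 0.394 to 1.44 in Lien, 0.788 to 1.85 in AngII and 0.575 to 0.762 in NS. Every AngII library exceeded every NS library in this ratio, in the contrast the list was chosen on. Jam2, which the ratio carries, was itself below every NS library in each AngII library. The ratio was computed after the levels had been seen and carries no test, and how often other ratios part the groups was not examined.

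Esam encodes a junction protein of endothelium and platelets (ENSMUSG00000001946, chr9:37528078-37538319, plus strand). It was the steadiest of the 10 genes within groups, with a pooled SD of 0.157 on the log2 scale. It had 50.4, 53.9, 51.7, 58.9 and 41.0 FPKM in Lien 11 to 15. It had 57.1, 52.6, 58.9, 54.4 and 48.6 FPKM in AngII 6 to 10, and 49.0, 45.4, 61.0, 51.0 and 55.9 FPKM in NS 1 to 5. The 3 groups overlapped throughout. Differences were -0.09 in Lien against AngII (95% interval -0.35 to 0.16, limma adjusted p = 0.819), -0.04 in Lien against NS (-0.29 to 0.22, limma adjusted p = 0.98) and 0.05 in AngII against NS. The sign of these small differences turned with some scalings.

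Pecam1 encodes PECAM-1 (CD31), an adhesion protein of endothelium, platelets and leukocytes (ENSMUSG00000020717, chr11:106654217-106750628, minus strand). It had 114, 75.5, 84.1, 114 and 64.8 FPKM in Lien 11 to 15. It had 94.98, 88.5, 93.2, 83.2 and 88.4 FPKM in AngII 6 to 10, and 84.6, 97.9, 127, 69.2 and 75.4 FPKM in NS 1 to 5. AngII libraries lay within a range that Lien and NS libraries exceeded on both sides. Means were 90.4 ± 22.5 FPKM in Lien, 89.7 ± 4.64 in AngII and 90.7 ± 22.8 in NS (SD, n = 5 each). Differences were -0.02 in Lien against AngII (95% interval -0.42 to 0.37, limma adjusted p = 0.974), -0.01 in Lien against NS (-0.40 to 0.39, limma adjusted p = 0.997) and 0.01 in AngII against NS. The intervals leave room for a change of up to about 0.4 on the log2 scale either way, and the sign turned with some scalings.

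Within Pecam1, small exons near the 3′ end of the coding part, which encodes the cytoplasmic tail with its tyrosine signalling motifs, set transcripts apart. They are shown in capitals between 20 flanking coding bases on each side, from GENCODE M21 transcripts (GRCm38, minus strand).
Pecam1-202 and not Pecam1-203, chr11:106671742-106671798, 57 bases: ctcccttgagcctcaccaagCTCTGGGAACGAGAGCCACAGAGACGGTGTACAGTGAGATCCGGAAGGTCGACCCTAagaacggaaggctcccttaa
Pecam1-204 and not Pecam1-202, chr11:106662002-106662024, 23 bases: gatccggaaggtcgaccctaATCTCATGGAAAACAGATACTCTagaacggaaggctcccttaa
The 57-base exon keeps the reading frame and the 23-base exon does not. Pecam1-203, which lacks the 57-base exon, was at 12.1 to 29.5 FPKM in 7 libraries and under 0.00492 FPKM or at that value in the other 8. The 7 libraries were Lien 12, 13, 14 and 15, AngII 8, and NS 3 and 4. In these it made up 13.1% to 23.3% of Pecam1. The 23-base exon was in transcripts that held 47.4% ± 6.98 of Pecam1 in Lien, 52.9% ± 6.64 in AngII and 51.4% ± 6.42 in NS (SD, n = 5 each), with overlap between all groups.

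Cdh5 encodes VE-cadherin, the adhesion protein of endothelial adherens junctions (ENSMUSG00000031871, chr8:104101625-104144511, plus strand). It had 70.7, 65.4, 75.3, 67.3 and 61.0 FPKM in Lien 11 to 15. It had 7.69, 66.3, 20.7, 75.2 and 3.99 FPKM in AngII 6 to 10, and 12.7, 87.0, 87.3, 14.9 and 57.5 FPKM in NS 1 to 5. AngII 6, 8 and 10 and NS 1 and 4 were low, at 3.99 to 20.7 FPKM, and the other 10 libraries were at 57.5 to 87.3 FPKM. Lien against AngII differed by 1.66 (SE 0.73, 95% interval 0.10 to 3.22, unadjusted p = 0.0383, limma adjusted p = 0.74), Lien against NS by 0.79 (limma adjusted p = 0.916) and AngII against NS by -0.87.

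Transcripts with only an assembly name were searched for values opposite to those of Cdh5. Among the 30229 such transcripts, the sum with Cdh5 was steadiest for a transcript that was at 0 in the 10 libraries with high Cdh5 and at 53.6 to 64.9 FPKM in the 5 libraries with low Cdh5. It was picked after its values were seen, it has no public identifier or position in the table, and whether it comes from the Cdh5 gene was not tested. It was the 1 assembled transcript above 0 in exactly those 5 libraries. The SD of log2 over the 15 libraries was 1.369 for Cdh5 alone, 0.170 for the sum and 0.265 for the sum with the next steadiest transcript. The sum was 67.9 ± 5.4 FPKM in Lien, 70.2 ± 5.4 in AngII and 76.6 ± 12.3 in NS (SD, n = 5 each). On the sum, Lien against AngII was -0.05 and Lien against NS was -0.16. Because the transcript was picked for the steadiest sum, small differences in the sum follow from that choice and are no test.

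**Figure D3:**
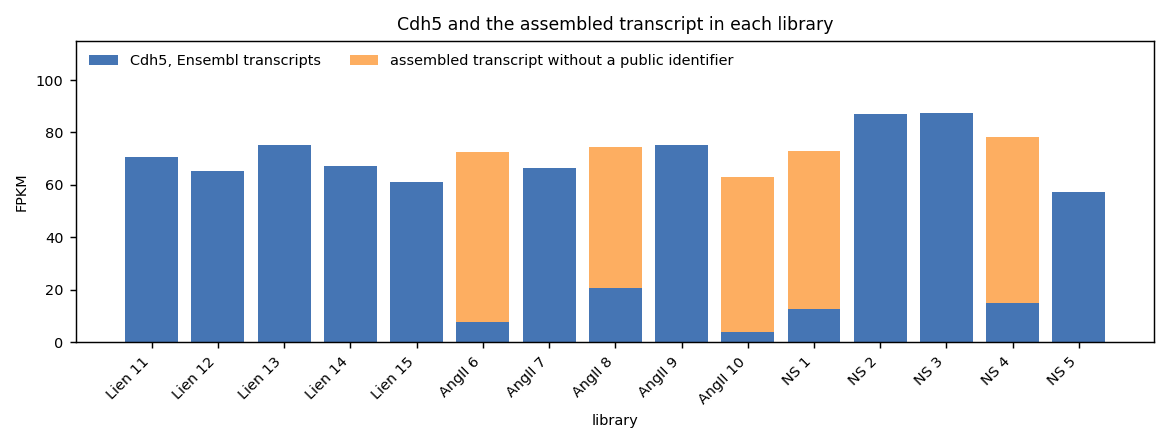
FPKM (y axis, stacked from 0) of Cdh5 from its Ensembl transcripts (blue) and of the assembled transcript without a public identifier (orange) in the 15 libraries (x axis). The assembled transcript appears in AngII 6, 8 and 10 and NS 1 and 4, where Cdh5 is at 3.99 to 20.7 FPKM, and the stacked sums span 57.5 to 87.3 FPKM.

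Tek, the angiopoietin receptor (ENSMUSG00000006386, chr4:94739289-94874976, plus strand), had 20.2, 12.6, 15.3, 15.9 and 17.3 FPKM in Lien 11 to 15. It had 20.3, 19.5, 17.3, 18.3 and 16.6 FPKM in AngII 6 to 10, and 19.95, 28.3, 32.5, 18.3 and 19.2 FPKM in NS 1 to 5. NS 2 and NS 3 stood above all other libraries, and 4 of 5 Lien libraries were below the lowest NS library. Lien against NS differed by -0.49 (SE 0.17, 95% interval -0.85 to -0.14, unadjusted p = 0.00935, limma adjusted p = 0.482), which did not pass. Lien against AngII differed by -0.18 (limma adjusted p = 0.758) and AngII against NS by -0.31.

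Tie1, the partner receptor (ENSMUSG00000033191, chr4:118471191-118490061, minus strand), had 36.7, 24.4, 29.3, 31.3 and 29.1 FPKM in Lien 11 to 15. It had 32.9, 30.4, 32.3, 33.2 and 23.3 FPKM in AngII 6 to 10, and 28.2, 33.1, 39.0, 27.4 and 25.9 FPKM in NS 1 to 5. The groups overlapped throughout. Differences were -0.01 in Lien against AngII (95% interval -0.32 to 0.30, limma adjusted p = 0.982), -0.02 in Lien against NS (-0.33 to 0.29, limma adjusted p = 0.987) and -0.01 in AngII against NS, with signs that turned under some scalings.

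Set against each other within a library, Tek/Tie1 was 0.507 to 0.595 in Lien, 0.537 to 0.714 in AngII and 0.667 to 0.856 in NS. Lien and NS did not overlap in this ratio, while AngII overlapped with both. Tek/Pecam1 was 0.139 to 0.267 in Lien, 0.186 to 0.221 in AngII and 0.236 to 0.289 in NS, without overlap between AngII and NS. These ratios were computed after the levels had been seen and carry no test. How often ratios of other gene pairs part the groups was not examined.

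Tie1 was also divided between transcripts in a way that differed between libraries. Tie1-203 (647 codons) ends its coding part early and lacks the 3′ coding exons of Tie1-201 (1134 codons), the end of the receptor that holds the kinase domain. It made up 40.4%, 4.3%, 32.9%, 41.6% and 39.8% of Tie1 in Lien 11 to 15. It made up 1.73%, 2.81%, 39.4%, 2.89% and 2.57% in AngII 6 to 10, and 0.906%, 34.1%, 44.5%, 1.99% and 4.43% in NS 1 to 5. The share was at least 32.9% in 4 Lien libraries, 1 AngII library and 2 NS libraries and at most 4.43% in the other 8. Each group held libraries of both kinds.

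**Figure D4:**
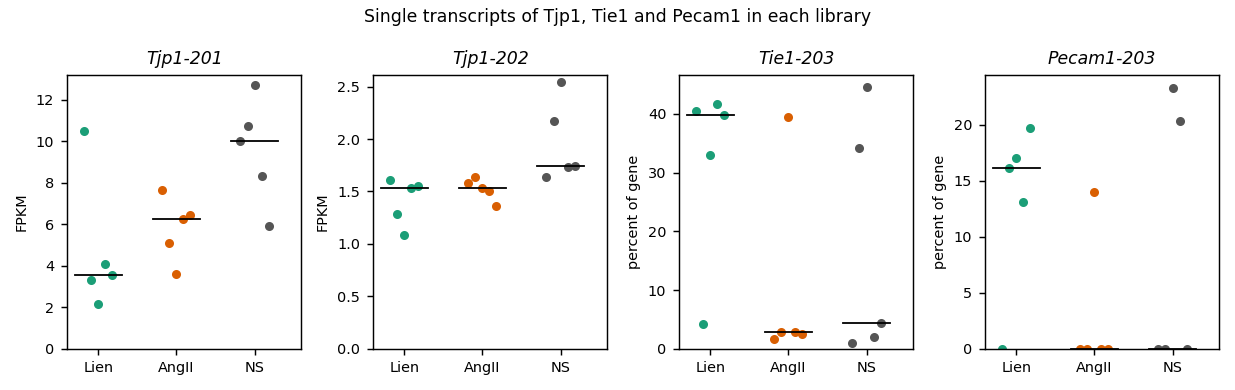
FPKM of Tjp1-201 and Tjp1-202 and percent of the gene held by Tie1-203 and Pecam1-203 (y axes, from 0) in each library of Lien, AngII and NS (x axis), with a line at the group median. Tjp1-201 varies more than Tjp1-202, and Tie1-203 and Pecam1-203 are each high in 7 libraries and near 0 or at most 4.43% in the other 8.

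Over the 10 genes, 8 differences were below 0 in Lien against NS, with a median of -0.03 beside -0.01 for all genes tested. Of all genes, 51.1% lay below the Pecam1 difference of -0.007 there. Lien against AngII had 8 below 0, with a median of -0.06, beside -0.13 for all genes, of which 68.9% lay below the Tie1 difference of -0.011. In AngII against NS 6 were below 0 with a median of -0.16, beside 0.12 for all genes, of which 28.7% lay below the Tie1 difference of -0.01. Without adjustment, Cldn5, Tjp1, Tek and Jam2 had p under 0.05 in Lien against NS, all 4 lower in Lien, as did 7.06% of all genes, of which 52.4% were lower.

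**Figure D5:**
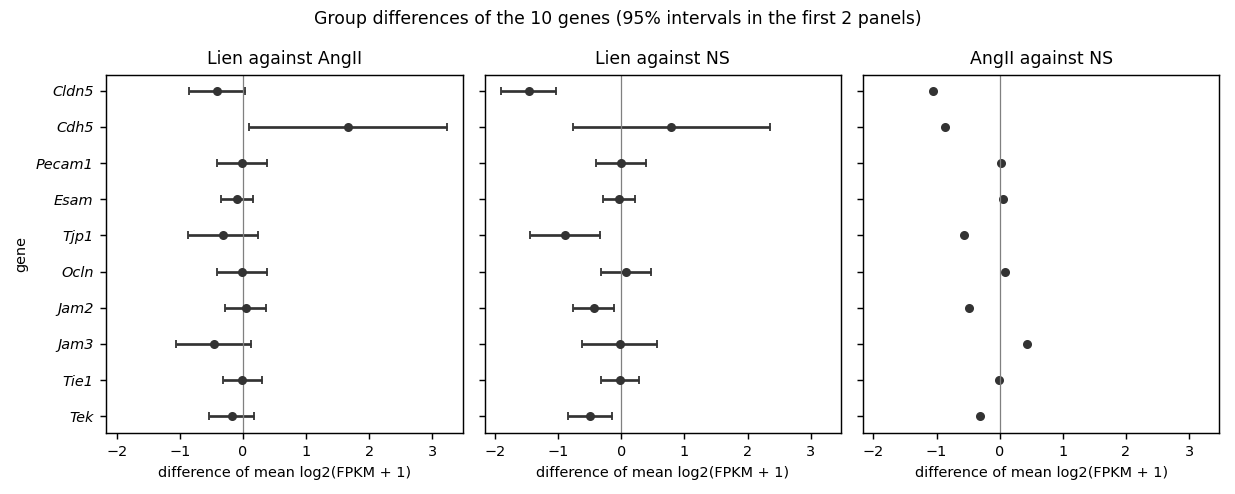
Differences of mean log2(FPKM + 1) (x axis) of the 10 genes (y axis) in Lien against AngII, Lien against NS and AngII against NS, with 95% intervals from limma in the first 2 panels and points alone in the contrast the genes were chosen on. Cldn5 in Lien against NS (-1.47, interval -1.91 to -1.03) is the difference that passed over all genes. Its NS values took part in the choice of the gene, so it is no independent evidence.

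Around the 10 genes, 6 lists of partners were read from the same fit. They held 79 genes, of which 60 were tested. In Lien against NS limma called 2 of the 60, 10 had an unadjusted p under 0.05, 40 were lower and 20 higher, and the median was -0.10 beside -0.01 for all genes. Of all genes 0.231% were called there, 7.06% had an unadjusted p under 0.05 and 51.1% lay below -0.007. In Lien against AngII limma called 0, 6 had an unadjusted p under 0.05, all lower, and the median was -0.13, the same as that of all genes. Of all genes 6.4% had such a p, and 83.6% of those were lower. In AngII against NS limma called 0, 5 had an unadjusted p under 0.05, against 7.04% of all genes, and the median was 0.13 beside 0.12 for all genes.

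Both called genes were endothelial transcription factors, a list of 12 that were all tested. Klf2, a factor that responds to blood flow, averaged 41.8 ± 11.9 FPKM in Lien, 86.8 ± 21 in AngII and 90.6 ± 7.84 in NS (SD, n = 5 each). Its highest Lien library (59.5 FPKM) was below its lowest AngII library (67.6) and its lowest NS library (81.5). Of all genes, 0.802% had every Lien library below every AngII library and 0.911% below every NS library. Lien against NS was -1.14 (limma adjusted p = 0.0196) and Lien against AngII -1.05 (limma adjusted p = 0.238, not passed). Ets2, an ETS family factor, averaged 11.01 ± 2.56 FPKM in Lien, 16.1 ± 2.71 in AngII and 19.7 ± 2.3 in NS, with -0.80 in Lien against NS (limma adjusted p = 0.0457) and -0.52 in Lien against AngII (limma adjusted p = 0.74). The list had a median of -0.32 in Lien against NS, -0.48 in Lien against AngII and 0.13 in AngII against NS, where the smallest p belonged to Foxo1 (0.51) and Sox7 (0.51), neither called.

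In the Tie ligand and signalling list, 0 of 12 were called in any comparison. Foxo1, a forkhead factor that Tek signalling restrains, averaged 15.3 ± 1.42 FPKM in Lien, 14.7 ± 1.36 in AngII and 10.2 ± 1.69 in NS. Its lowest Lien library (13.1) and lowest AngII library (13.2) were above its highest NS library (11.9). Of all genes, 0.892% had every Lien library above every NS library, and 1.51% every AngII library. Foxo1 in Lien against NS was 0.56 (limma unadjusted p = 0.000446, limma adjusted p = 0.124). Angpt1, the activating Tek ligand, averaged 2.92 ± 1.41 FPKM in Lien, 2.81 ± 0.723 in AngII and 4.48 ± 1.73 in NS, with -0.49 in Lien against NS (limma adjusted p = 0.745). In Lien against AngII the smallest p belonged to Grb2, an adaptor protein (-0.40), and Angpt2 (-0.34), at limma adjusted p = 0.74 each.

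Of 21 other claudins 7 passed the filter and 0 were called. Cldn15, a claudin that forms cation channels in gut epithelium, averaged 13.5 ± 1.94 FPKM in Lien, 14.3 ± 2.3 in AngII and 20.98 ± 4.23 in NS, with -0.59 in Lien against NS (unadjusted p = 0.0014, limma adjusted p = 0.212) and -0.52 in AngII against NS (limma adjusted p = 0.428). Cldn11 and Cldn19, claudins of myelin sheaths, averaged 0.700 and 0.405 FPKM in Lien and 2.01 and 0.931 FPKM in AngII (differences of -0.89 and -0.51, limma adjusted p = 0.74 and 0.744).

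Of 15 tight junction partners 11 were tested and 0 called. Pard6a, a polarity scaffold, averaged 3.27 ± 0.503 FPKM in Lien, 3.49 ± 0.733 in AngII and 2.34 ± 0.465 in NS (0.36 in Lien against NS, limma adjusted p = 0.672, and 0.42 in AngII against NS, 0.636). The scaffolds Magi3 (-0.21 in Lien against NS, limma adjusted p = 0.823), Pard6b (-0.25 in AngII against NS, 0.743), Patj (-0.57 in Lien against AngII, 0.74) and Mpdz (-0.47 in Lien against AngII, 0.74) did not pass either.

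Of 12 adherens junction partners 0 were called. Jup, plakoglobin, averaged 30.8 ± 5.3 FPKM in Lien, 34.0 ± 4.88 in AngII and 41.2 ± 4.62 in NS (-0.42 in Lien against NS, limma adjusted p = 0.482). Vcl, vinculin, averaged 38.7 ± 12.6 FPKM in Lien, 37.6 ± 7.87 in AngII and 27.2 ± 4.74 in NS (0.45 in Lien against NS, limma adjusted p = 0.749). In Lien against AngII the smallest p belonged to Ctnnd1, p120 catenin (-0.20), and Nectin1 (-0.42), at limma adjusted p = 0.74 and 0.742.

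Of 9 leukocyte passage and gap junction genes 8 were tested and 0 called. Gja4, connexin 37, averaged 17.2 ± 6.21 FPKM in Lien, 14.8 ± 4.33 in AngII and 9.87 ± 3.51 in NS (0.73 in Lien against NS, limma adjusted p = 0.589). Gja1, connexin 43, averaged 43.9 ± 3.58 FPKM in Lien and 56.6 ± 15.7 in NS (-0.32, limma adjusted p = 0.751). The leukocyte ligands Icam1 and Icam2 averaged 9.78 and 13.1 FPKM in Lien and 14.4 and 18.2 FPKM in AngII (-0.55 and -0.43, limma adjusted p = 0.74 each).

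The genes whose levels followed Cldn5 most closely were sought among the 7946 tested genes averaging 5 FPKM or more. Over the 15 libraries the highest Pearson r of log2(FPKM + 1) belonged to Ptger4 (0.934), a prostaglandin E2 receptor, Gpr4 (0.915), a proton-sensing receptor, Nrarp (0.902), a regulator of Notch signalling, Sgk1 (0.872), a serum and glucocorticoid induced kinase, and Dusp10 (0.871), a MAP kinase phosphatase. Ptger4 averaged 2.58 ± 1.00 FPKM in Lien, 4.07 ± 1.35 in AngII and 9.17 ± 1.61 in NS. Dusp10 averaged 3.79 ± 1.39 FPKM in Lien, 5.43 ± 1.46 in AngII and 18.4 ± 3.90 in NS. Among the 10 genes, Tjp1 (0.759), Tek (0.672) and Jam2 (0.595) came nearest and Pecam1 (0.063) did not follow. That Cldn5 and Pecam1 part is how the list was chosen. All of these points share the group difference of Cldn5, the library and its scaling, so the values are a description. With group means taken out, the order was another: Cbx6 (0.841), Mpp5 (0.835), Rpl23 (0.791), Gm13050 (0.765) and Gm12751 (0.753). The order of the members changed as well. Jam3 was at 0.460, Tjp1 at 0.434, Tie1 at 0.351, Tek at 0.229 and Cdh5 at 0.216. Pecam1 was at 0.143, Jam2 at -0.064 and Esam at -0.071.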

How the data were processed

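Ribosomal RNA was depleted and the remaining RNA of tissue labelled as vascular was sequenced, per the labels' protocols, in 5 Lien, 5 AngII and 5 NS libraries. The extraction note speaks of heart tissue. The submitters' processing notes name limma without a version or a role, and none of these sources states the aligner, quantifier or build. The deposited values were read as FPKM per transcript, since they are not whole and their sums differ between libraries. That reading is not stated in the header.

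Of 131437 transcripts, 101208 carry an Ensembl identifier, and 99965 of those matched GENCODE M21 (GRCm38) and were summed to 32930 genes. The 1243 unmatched and 30229 assembly-named transcripts stayed out of gene values. The assembly-named ones held 11.0% to 17.0% of the library sum, and mitochondrial transcripts 5.18% to 22.0%.

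A gene entered the test if 5 or more libraries reached 0.5 FPKM, which kept 15586 genes and all 10 members. limma 3.58.1 (R 4.3.3) fitted the 3 group means on log2(FPKM + 1) over all 15 libraries, with 12 residual degrees of freedom, two-sided, with its robust and trend options. A gene counts as called where its p, adjusted per comparison after Benjamini and Hochberg, is under 0.05. Fold changes of low genes are understated on this scale. The step was checked on simulated data. Figures were drawn with matplotlib 3.10.9, and tables were made in Python 3.11.15 (numpy 2.4.6, pandas 2.3.3).

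The members, lists and alternatives were chosen with earlier results of these data known. Named genes were the 10 members, the called genes of each pathway list (up to 4, smallest p) or else the 2 with the smallest p, and the 5 genes nearest to Cldn5 with and without group means. Alternatives were 12 settings, leaving out each of the 15 libraries, and Cdh5 with an assembled transcript added, the last chosen after seeing the data.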

Additional observations from a re-analysis of the deposited data

Results flagged for a closer look

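In 3 of the 30 groups of 5 libraries (10 genes in 3 groups), 1 library lay far from the other 4 by Dixon's test at the 95% level, and chance gives about 1 in 20 groups. Tjp1 was 12.27 FPKM in Lien 11, against 3.36 to 5.69 FPKM in the other Lien libraries. Ocln was 0.8815 FPKM in AngII 6, against 0.269 to 0.345 FPKM in the other AngII libraries. Tie1 was 23.29 FPKM in AngII 10, against 30.4 to 33.2 FPKM in the other AngII libraries.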

How the results depend on the processing

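Cldn5 stayed below NS in Lien under the 12 alternative settings (-1.56 to -1.40, limma adjusted p = 0.0029 to 0.0528) and without each of the 15 libraries in turn (-1.57 to -1.32, limma adjusted p = 0.00541 to 0.0348). The fit of the 2 groups alone gave the same -1.47 with a limma adjusted p of 0.0528, from fewer libraries. All of these fits hold NS values that took part in the choice of the gene, so they are no independent evidence. In Lien against AngII it did not pass in any of these fits and ran from -0.51 to -0.26 without 1 library and from -0.47 to -0.18 over the settings, with -0.18 where libraries were scaled to the same median, against -0.41 as reported.

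The number of genes called over the whole table depended on the setting. In AngII against NS, 12 as reported, it was 2 with no filter, 23 after quantile normalization, 6 with libraries scaled to the same median, 19 from the 2 groups alone, 27 with the endothelium covariate, 7 with nerve, brown fat and cardiac covariates, 35 with array weights, 5 with the highest transcript in place of the sum, and 1 to 17 without 1 library. With that median scaling 5 of the 6 were lower, against 8 of 12 as reported. In Lien against AngII, 2 as reported, it was 1 with the filter of 1 FPKM in 10 libraries, after quantile normalization, from the 2 groups alone and with the 3 covariates, 6 with array weights, and 1 to 3 without 1 library. In Lien against NS, 36 as reported, it was 23 with no filter, 7 from the 2 groups alone, 94 with array weights, and 11 to 37 without 1 library, and with the median scaling 18 of 27 were lower, against 31 of 36 as reported.

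Differences close to 0, none of them called, changed sign. With libraries scaled to the same median, which moved the median of all genes from -0.13 to 0.04 in Lien against AngII and from 0.12 to -0.0003 in AngII against NS, Lien against AngII was 0.21 for Pecam1, 0.14 for Esam, 0.038 for Ocln, 0.22 for Tie1 and 0.042 for Tek. Lien against NS was then 0.066 for Pecam1, 0.035 for Esam, 0.039 for Jam3 and 0.051 for Tie1. After quantile normalization Lien against AngII was 0.020 for Pecam1, 0.15 for Ocln and 0.069 for Tie1. Scaled to nuclear genes it was 0.0001 for Tie1. With the endothelium covariate it was 0.081 for Pecam1, 0.089 for Ocln and 0.077 for Tie1, and Lien against NS was 0.10 for Pecam1, 0.11 for Jam3 and 0.075 for Tie1. With the 3 covariates Lien against AngII was 0.028 for Pecam1, 0.16 for Ocln, 0.19 for Tie1 and 0.015 for Tek, and Lien against NS was 0.099 for Pecam1, 0.044 for Esam and 0.12 for Tie1. Jam2 in Lien against AngII was -0.042 with array weights and -0.0029 with the highest transcript, and Esam in Lien against NS was 0.0061 with the highest transcript. Cdh5 was not close to 0 as reported, at 1.66 in Lien against AngII and 0.79 in Lien against NS, and changed sign too. With the assembled transcript added, chosen after seeing the data, Cdh5 was -0.048 in Lien against AngII and -0.16 in Lien against NS. The cause was not tested for any of these.

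Without 1 library, Lien against AngII ran from -0.11 to 0.089 for Pecam1, -0.054 to 0.053 for Ocln, -0.046 to 0.13 for Jam2 and -0.10 to 0.059 for Tie1. Lien against NS ran from -0.098 to 0.12 for Pecam1, -0.090 to 0.038 for Esam, -0.022 to 0.14 for Ocln, -0.28 to 0.19 for Jam3 and -0.092 to 0.067 for Tie1. Ocln did not pass the filter, and so has no value, without each of 5 libraries, with the filter of 1 FPKM and with the highest transcript.

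No paired analysis was possible because the groups share no replicate numbers. Depth is unknown, so low levels such as those of Ocln carry no counting interval, and 5 libraries a group limit how small a difference can pass. The FPKM values share their sum, so a change in abundant RNA moves all others.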
